A study of Homo sapiens with 4 samples.

Results

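Genes expressed from the copy of a single parent were followed across the arrays, namely the 10 imprinted genes H19, IGF2, MEG3, DLK1, PEG3, PEG10, MEST, SNRPN, NDN and CDKN1C. They were chosen by name as well-known imprinted genes, and every probe whose RefSeq accession belongs to 1 of them was taken, which gave 16 probes of 10 genes out of 50590 probes and 20501 genes with a symbol. MCF-10A, a human line of non-tumour mammary epithelial cells, was treated for 24 h or 48 h with a stapled peptide at 10 µM, in each case in a medium that held insulin, EGF, hydrocortisone and cholera toxin. The peptides are labelled stapled-peptide and non-specific stapled-peptide, the treatment tag of the latter reads control, and the study designed its stapled peptides after the part of BIG3 that binds PHB2. The labels do not say which of its numbered peptides either name stands for. Total RNA of 1 sample for each peptide and time was hybridized to 4 single-colour Agilent arrays, so each group is 1 array. Groups could therefore not be tested against each other, and having 4 arrays in all is what limits precision. No untreated cells were analysed here.

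Imprinted genes are marked by DNA methylation in the germ line, so that in the offspring the maternal or the paternal copy alone is transcribed. They lie in clusters that share a control region, and maternally and paternally expressed members often stand side by side, as H19 and IGF2 do on chromosome 11 and MEG3 and DLK1 on chromosome 14. Many of them act on growth, placenta or adipose tissue and brain, and many are at their highest before birth. The arrays measure total RNA and not the parental copies, so they carry no information on which copy was used.

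Start sites of 4 members are shown because these members differ most in what the arrays gave: SNRPN and H19 with large differences, MEG3 with a small one and NDN with no signal. Each line holds the 250 bases before a RefSeq transcript start in GRCh38.p14, written in the direction of transcription, and capitals mark each CG pair, the site of DNA methylation. RefSeq windows were matched for 5 of the 10 members, namely H19, MEG3, MEST, SNRPN and NDN.
SNRPN and SNURF, chr15:24954737-24954986, plus strand: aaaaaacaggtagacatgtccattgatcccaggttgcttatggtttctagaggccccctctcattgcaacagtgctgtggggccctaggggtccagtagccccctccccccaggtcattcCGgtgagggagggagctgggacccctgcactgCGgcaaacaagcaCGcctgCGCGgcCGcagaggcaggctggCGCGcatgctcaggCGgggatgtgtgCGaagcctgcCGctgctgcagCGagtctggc
H19, chr11:2001267-2001516, minus strand: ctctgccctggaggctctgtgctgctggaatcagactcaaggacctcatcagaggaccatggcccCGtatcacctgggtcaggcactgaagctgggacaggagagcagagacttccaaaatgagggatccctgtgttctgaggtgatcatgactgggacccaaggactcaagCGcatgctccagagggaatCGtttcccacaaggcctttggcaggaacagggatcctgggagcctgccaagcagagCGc
MEG3, chr14:100825858-100826107, plus strand: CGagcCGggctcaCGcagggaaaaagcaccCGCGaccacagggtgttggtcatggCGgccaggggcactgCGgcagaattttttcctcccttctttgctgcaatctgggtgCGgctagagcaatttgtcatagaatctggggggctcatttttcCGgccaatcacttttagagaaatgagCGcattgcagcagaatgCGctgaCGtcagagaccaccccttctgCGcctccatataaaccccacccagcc
NDN, chr15:23687306-23687555, minus strand: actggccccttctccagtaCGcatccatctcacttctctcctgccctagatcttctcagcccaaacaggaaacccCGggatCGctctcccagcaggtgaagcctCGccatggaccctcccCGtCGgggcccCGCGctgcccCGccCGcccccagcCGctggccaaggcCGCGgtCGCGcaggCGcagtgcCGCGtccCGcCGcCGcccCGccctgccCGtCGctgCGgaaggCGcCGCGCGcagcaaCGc
RefSeq gives SNRPN 4 such windows, with 1 to 12 CG pairs, and the one printed was taken because it is also that of SNURF, whose reading frame stands before that of SNRPN on a shared transcript. It is the richest of the 4 in CG pairs and holds 12 CG pairs, a number that 48.5% of the 35116 RefSeq windows of the same length reach. MEG3 has 3 windows that overlap, of which the first is shown. The H19 window holds 4 CG pairs, reached by 70.7% of windows, the MEG3 window 13, reached by 46.6%, and the NDN window 30, reached by 12.4%. The letters TGCCGC, the core bound by the imprint-keeping zinc finger protein ZFP57 when methylated, were searched on both strands together with their reverse complement GCGGCA. They occur 2 times in the SNRPN window shown and 0, 0 and 1 times in its other windows, 1 time each in the MEG3 and NDN windows and 0 times in the H19 window, and 12.7% of all windows hold them. These matches describe letters only.

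On each array 62.5% to 65.7% of 58717 spots were well above background by the scanner software's mark, and a probe without this mark on an array is called dim there.

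The array labelled non-specific stapled-peptide at 48 h stood apart from the others, and its markers go against the labelled line. Every difference reported at 48 h between peptides, or between times with non-specific stapled-peptide, rests on it. Whether it holds RNA of MCF-10A cells was not tested and cannot be told apart here from a change in these cells, so each direction drawn from it is that of the array so labelled. In RNA of whole cultures, fewer cells of a type and less RNA per cell cannot be told apart either.

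All 13 basal mammary marker genes, which the labelled line should express, were well above background on the other 3 arrays and 10 of 13 on this one. The basal genes at the brightest probe spanned log2 signals of 5.86 to 15.40 on the other 3 arrays and 1.63 to 7.10 on this one, where 12 of 13 were at least 4-fold lower than with stapled-peptide at 48 h. KRT5, a keratin of basal cells, had 14.65, 14.54 and 14.59 on the other arrays and 5.02 here, and KRT6A, COL17A1 and TRIM29 were dim here. After KRT6A (a bound of −9.60) and KRT5 (−9.58), the largest basal differences were those of LAMB3 (−8.47), S100A2 (−8.20) and ITGB4 (−8.18). The summed signal of the 13 basal genes was 144926, 150268 and 149076 on the other arrays and 576 on this one. In the opposite direction, 5 of 8 genes of an embryonic kidney line list were at least 4-fold higher on it, with a summed signal of 68006 against 801 to 845. These were BEX2, UCHL1 and LIN28B, with bounds of 10.38, 10.36 and 8.98, CKB (6.13) and HOXA9 (2.88), the other probe of which differed by 0.03. PAX2 and L1CAM, the other 2 with a difference, went the other way. They were dim on this array, with bounds in the lower direction that do not reach 4-fold. PHOX2A was dim on all 4 arrays. Of all genes with a difference at 48 h, 8.1% were at least 4-fold higher and 8.7% at least 4-fold lower. Of 9 neuronal or neuroendocrine genes 5 were higher, namely NEFM, NEFL, CHGA and STMN2 (bounds of 8.05, 7.26, 4.20 and 2.58) and SYP (2.21), and TUBB3 was lower (−4.05), with a summed signal of 7179 against 2554 to 2673. Of 9 fibroblast genes 3 were lower, namely DCN (−9.15), FAP (a bound of −7.03) and PDGFRA (a bound of −2.12), while COL1A1 differed by 0.13 and COL1A2 and COL3A1 were dim on every array. The fibroblast sum of 31056, 33644 and 31870 on the other arrays and 203 here is mostly that of DCN. Of 8 luminal genes KRT8 (−2.79) and KRT18 (−2.34) were lower (a sum of 30586 to 32302 against 6592). Of 7 blood and endothelial genes with a difference, CD68 (−5.07) and PECAM1 (a bound of −3.18) were at least 4-fold lower and 1 was at least 4-fold higher. The part of these in the results on imprinted genes was not tested.

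Values are log2 signals after quantile normalization over the 4 arrays, and values on different probes are not compared. They are given in the order stapled-peptide at 24 h, non-specific stapled-peptide at 24 h, stapled-peptide at 48 h and non-specific stapled-peptide at 48 h. A difference between peptides is non-specific minus stapled, and a difference between times is 48 h minus 24 h. Where a probe was dim on 1 of the arrays compared, the dim value was replaced by the lowest marked signal on the same array (3.57 to 3.94), unless it was higher already, and the difference is a bound on the size of the change. A probe dim on both arrays gave no difference. A gene is represented by its probe with the highest mean signal. A difference of at least 4-fold, which is 2 on the log2 scale, was counted as a size and not as a test.

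At 48 h, SNRPN, PEG10 and H19 were at least 4-fold lower with non-specific stapled-peptide than with stapled-peptide, and 0 members were at least 4-fold higher. MEST was at least 3.55-fold lower, a bound that does not reach 4-fold, and MEG3 was lower by 2.49-fold, while IGF2, PEG3, DLK1 and CDKN1C lay within 2-fold, and NDN had no signal on any array to compare. Among all 17112 genes with a difference at 48 h, 8.7% were at least 4-fold lower and 8.1% at least 4-fold higher. The 9 members with a difference had a median of −1.32, whereas all genes had a median of 0.03 and lay between −2.85 and 2.56 from the 5th to the 95th percentile. A member dim on this array could enter only through the arrays where it was brighter, so the median over the members with a difference is a description.

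**Figure D1:**
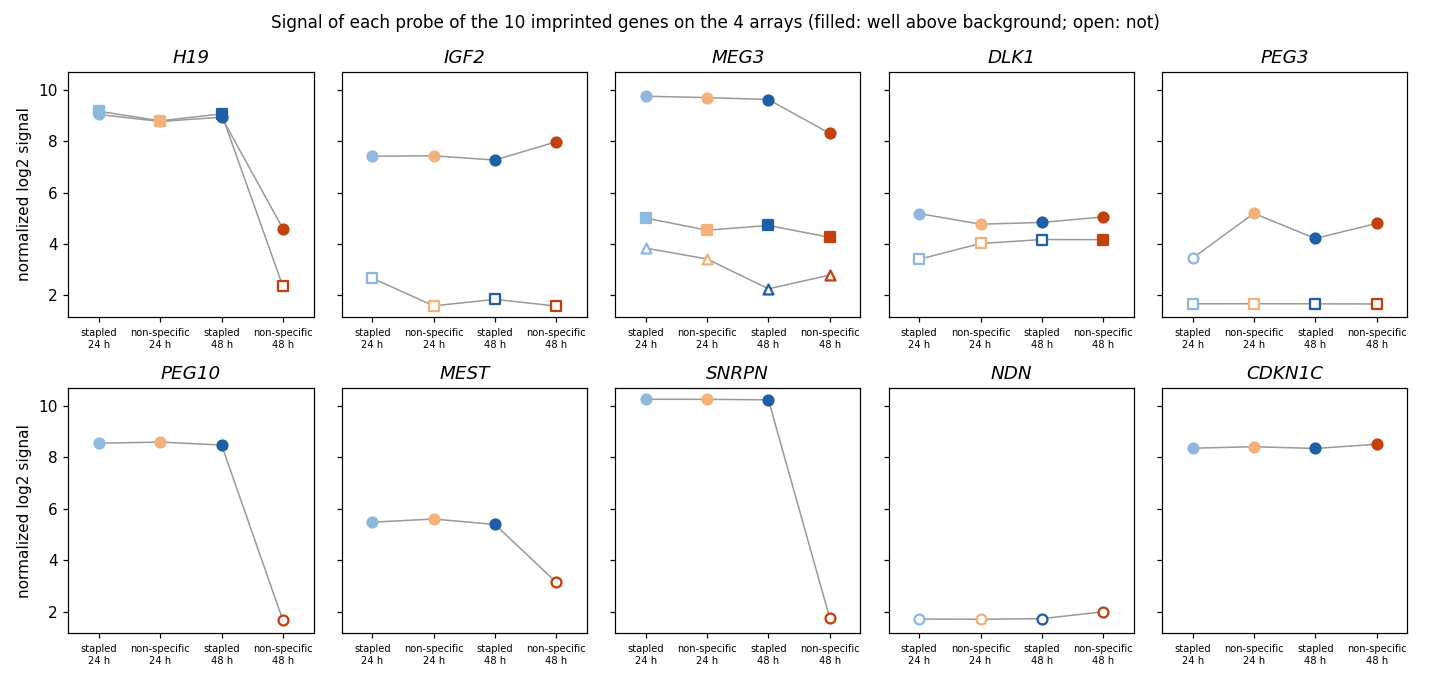
Normalized log2 signal (vertical axis) of the 16 probes of the 10 imprinted genes on the 4 arrays (horizontal axis); circles are the brightest probe of a gene, squares and triangles its other probes, filled where well above background and open where dim. SNRPN, PEG10 and MEST are open on the array labelled non-specific 48 h alone, with 1.75, 1.67 and 3.14, and NDN is open on all 4.

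At 24 h, by contrast, 0 of the 9 members with a difference passed 4-fold between the peptides, against 0.413% of 16228 genes in either direction. The member median there was 0.02. Over 32921 probes, log2 differences at 24 h had a standard deviation of 0.43, which is a spread over probes and not between cultures. All 9 members except PEG3, with a bound of at least 1.25 on a dim probe, differed by less than this at 24 h.

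SNRPN encodes SmN, a core protein of spliceosomal particles, and is transcribed from the paternal copy in the region linked to the Prader-Willi syndrome on chromosome 15. Its probe had 10.26, 10.26, 10.24 and 1.75. The first 3 arrays lay within 0.02 of each other, and on the last the spot was dim. Before normalization the linear signals were 1281, 1252, 1092 and 2.83. SNRPN was at least 102-fold lower with non-specific than with stapled-peptide at 48 h (a bound of −6.67) and at least 103-fold lower than with non-specific stapled-peptide at 24 h.

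NDN, which encodes the MAGE family protein necdin and is also paternally expressed, lies on the same chromosome before SNRPN. It had 1.72, 1.71, 1.73 and 2.0, and was dim on every array. The array carries this probe in 10 spots, of which 0 were well above background on each of the 4 arrays, and the raw log2 signals of the single spots ran from 1.35 to 2.27. NDN therefore gave no difference in either direction, at 24 h or 48 h.

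SNURF, which shares the start site printed above with SNRPN, had 11.31, 11.23, 11.21 and 4.35. It was above background on every array, so its difference of −6.85 at 48 h, 116-fold lower, is measured and not a bound. At 24 h it differed by −0.08. Since SNURF and SNRPN can stand on the same RNA molecule, their probes are not independent measurements. IPW, a noncoding RNA further along the same paternal transcript, had 10.26, 10.46, 10.33 and 1.70 at its brightest probe, a bound of −6.77. IPW is covered by 11 probes, of which 10 had a difference at 48 h, all of them lower, with 4 at least 4-fold lower and a range from −6.77 to −1.21. PWARSN, another RNA of this interval, had a bound of −4.51 and PWAR5 a bound of −1.65.

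UBE3A, which encodes a ubiquitin ligase, closes the domain and is transcribed from the other strand, with imprinting known in neurons only. Its signals were 8.20, 8.50, 8.31 and 8.54, a difference of 0.23 at 48 h and 0.30 at 24 h. On the side of NDN, MAGEL2 was well above background on the array labelled non-specific 48 h alone (a bound of 0.46) and NPAP1 on both 48 h arrays, with a difference of 1.28. MKRN3 and PWRN1 were dim on every array, and so was ATP10A, which lies beyond UBE3A. Of the 10 listed genes of the region on the array other than SNRPN and NDN, 3 were at least 4-fold lower at 48 h, 2 had measured differences under 4-fold, 2 had bounds that do not reach it and 3 were not measured.

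The small nucleolar RNAs between SNURF and UBE3A were added to the account after their values had been seen. SNORD116 copies are processed from introns of the long paternal transcript, and the copies are near-identical, so the signal of a single copy is uncertain. Of 11 SNORD116 copies on the array 10 had a difference at 48 h, all 10 lower, 4 of them at least 4-fold. The median was −1.70 and the range ran from −5.63 to −0.52. Only SNORD116-10 was above background on both 48 h arrays, with a measured difference of −0.52 (1.43-fold). The others were dim on the non-specific array, so their differences are bounds that could only be lower. The count and the median are therefore a description. The brightest copy, SNORD116-19, had 9.23, 9.17, 9.20 and 3.23, a bound of −5.63. At 24 h the copies had a median of 0.04 over 9 with a difference. On the stapled 48 h array 10 copies were well above background, and 1 on the non-specific array. Of 12 SNORD115 copies, which are known mainly from brain, 8 were dim on every array, and among the remaining 4 the differences ran from −0.62 to 1.68. SNORD107, SNORD64, SNORD108 and SNORD109B were dim on the non-specific 48 h array alone, with bounds of −1.25, −2.37, −2.12 and −1.996. These bounds, too, could only be lower. SNORD109B lies beyond the SNORD115 copies, before UBE3A.

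PEG10 is a paternally expressed gene on chromosome 7 that derives from a retrotransposon and is needed for the placenta. It had 8.55, 8.60, 8.48 and 1.67. Only on the last array was the signal dim, with linear signals of 383, 392, 316 and 2.65 before normalization. At 48 h it was at least 30.2-fold lower with non-specific stapled-peptide (a bound of −4.92), and it was at least 32.7-fold lower than with the same peptide at 24 h.

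SGCE, which encodes epsilon-sarcoglycan and starts beside PEG10 in the opposite direction, had 11.36, 11.42, 11.27 and 10.01. Its difference at 48 h of −1.27 was thus under 4-fold, on a probe above background on every array. Of the 11 listed neighbours of PEG10, 2 were at least 4-fold lower at 48 h, namely PON2 (−3.10) and PDK4 (−2.05), and 2 at least 4-fold higher, namely PPP1R9A (3.67) and DLX5 (a bound of 3.07). The other probe of PPP1R9A differed by 0.96. Measured differences below 4-fold were those of CASD1 (−0.25), ASB4 (−0.04) and CALCR (−0.56). The bounds of TFPI2 (1.45) and PON3 (1.67) do not reach 4-fold, which leaves their size open upwards, and PON1 was dim on every array.

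MEST, a paternally expressed gene for a hydrolase-like protein of mesoderm, lies further along chromosome 7 and hosts miR-335. It had 5.48, 5.61, 5.39 and 3.14. It was dim on the last array, so the differences are bounds, at least 3.55-fold lower against stapled-peptide at 48 h (−1.83) and at least 4.11-fold lower against the same peptide at 24 h (−2.04). These values lie on both sides of the 4-fold size. Among the 6 listed neighbours, CPA4, a carboxypeptidase gene, was at least 4-fold lower (a bound of −2.21), COPG2 differed by 0.86, CEP41 by 1.14 and KLF14 by −0.92, and MESTIT1 and TSGA13 were dim throughout.

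H19 is a long noncoding RNA transcribed from the maternal copy and the host of miR-675. The brighter of its probes by mean signal, A_19_P00323082, had 9.04, 8.77, 8.93 and 4.60, well above background on all 4 arrays. The other, A_24_P52697, had 9.16, 8.79, 9.06 and 2.35 and was dim on the last. The first gave a measured difference of −4.33 at 48 h, 20.1-fold lower with non-specific stapled-peptide, and the second a bound of −5.49, at least 45.1-fold lower. At 24 h the probes differed by −0.27 and −0.37, which is within the spread over probes at that time. From 24 h to 48 h, H19 differed by −4.17 with non-specific and by −0.11 with stapled-peptide.

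IGF2, the paternally expressed fetal growth factor in the same cluster, had 7.42, 7.43, 7.27 and 7.98 at its brightest probe. The array labelled non-specific 48 h was thus the highest of the 4, with a difference of 0.71 (1.64-fold) against stapled-peptide at 48 h and 0.55 against the same peptide at 24 h. Its other probe was dim on every array. IGF2 and H19 therefore differed in opposite directions at 48 h, the former by less than 2-fold. The IGF2 difference is also smaller than the standard deviation of 1.55 over probes at 48 h.

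CDKN1C encodes the cyclin-dependent kinase inhibitor p57 and is maternally expressed from the neighbouring control region of chromosome 11. Its signals of 8.36, 8.42, 8.35 and 8.51 spanned the narrowest range of the members above background on all arrays. The difference at 48 h was 0.16 (1.12-fold) and at 24 h 0.06. Of the other listed genes of the cluster, OSBPL5 (−5.36), PHLDA2 (−3.52) and SLC67A1, also named SLC22A18 (−2.43), were at least 4-fold lower, all measured on every array. PHLDA2, a maternally expressed restrainer of placental growth, had 11.28, 11.38, 11.27 and 7.75. KCNQ1OT1, the paternally expressed noncoding RNA of this control region, was higher with 4.88, 5.55, 5.55 and 7.96 (a difference of 2.42), and KCNQ1 by a bound of 3.05. The remaining 8 listed genes had differences or bounds that did not reach 4-fold, from −1.92 for KCNQ1DN, −1.14 for CD81 and a bound of −1.0 for INS to −0.44 for TRPM5, a bound of −0.29 for ASCL2, 0.27 for TH, 0.45 for TSSC4 and 0.48 for NAP1L4. The other probe of TH differed by −0.78, in the opposite direction.

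MEG3 is a maternally expressed noncoding RNA on chromosome 14. At its brightest probe it had 9.75, 9.69, 9.62 and 8.30, a difference of −1.32 (2.49-fold lower) at 48 h. A further probe, also above background on all 4 arrays, had 5.01, 4.54, 4.72 and 4.26, a difference of −0.46, and the remaining probe was dim on every array. The probes of MEG3 thus pointed the same way at 48 h with unequal size, and the dimmer one differed by −0.47 at 24 h as well.

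DLK1, the paternally expressed neighbour of MEG3, encodes a transmembrane protein related to Notch ligands that holds back adipocyte formation. It had 5.18, 4.77, 4.84 and 5.06, with differences of 0.22 at 48 h and −0.41 at 24 h. Both are smaller than the standard deviation of 0.43 over probes at 24 h. The other probe was well above background on the array labelled non-specific 48 h alone, with 3.41, 4.02, 4.17 and 4.17, and gave no difference between the peptides. In the same cluster DIO3 differed by −0.83 at 48 h and −0.81 at 24 h, BEGAIN by 0.64, and RTL1 was dim on every array.

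PEG3, a paternally expressed zinc finger gene on chromosome 19, had 3.45, 5.19, 4.22 and 4.80. It was dim with stapled-peptide at 24 h, while the lowest marked signals of the 4 arrays were 3.57 to 3.94. The difference was 0.59 at 48 h and a bound of 1.25 at 24 h, and the other probe was dim on every array. The bound at 24 h rests on the dim spot and was 0.42 under normexp, so the times are not ranked. Among its neighbours, ZNF264 differed by −1.80 with 9.98, 9.83, 9.98 and 8.18, MIMT1 and ZIM2 had bounds of 1.74 and 0.80, USP29 differed by −0.02, and ZIM3 and DUXA were dim throughout.

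**Figure D2:**
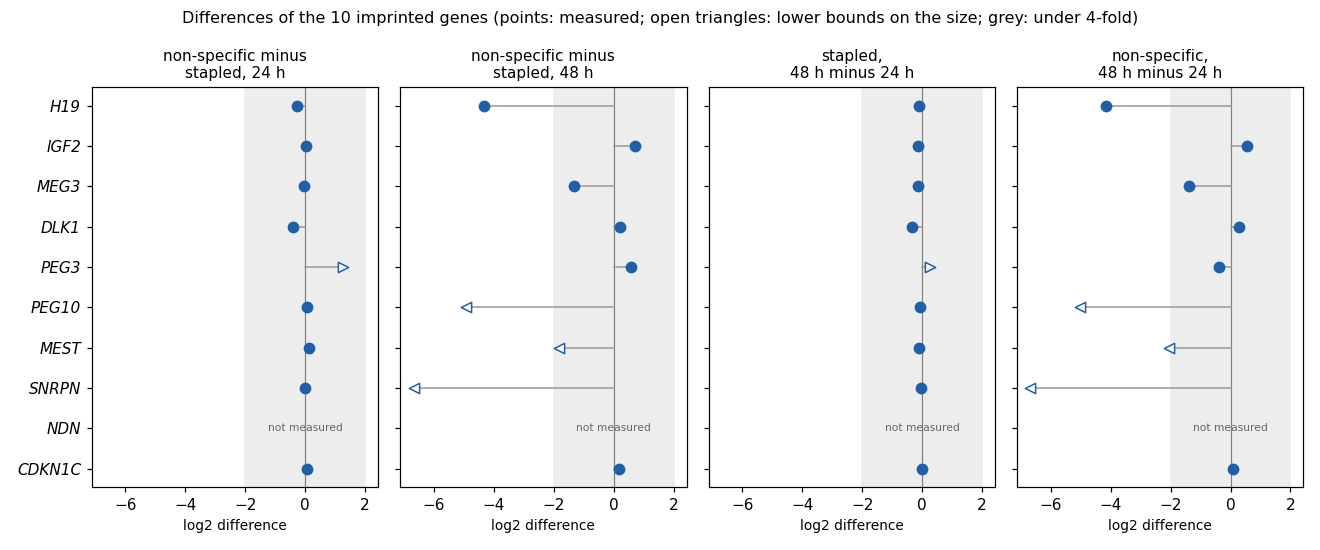
Log2 differences (horizontal axis) of the 10 imprinted genes (vertical axis) in the 4 comparisons of single arrays; points are measured, open triangles are bounds on the size and the grey band holds differences under 4-fold. The marks beyond the band are those of SNRPN, PEG10 and H19 in the panels that hold the array labelled non-specific 48 h, with MEST at −2.04 in the comparison of times.

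From the earlier to the later time with non-specific stapled-peptide, SNRPN, PEG10, H19 and MEST were at least 4-fold lower and 0 members higher, where 8.47% of 17297 genes were lower and 8.12% higher by that size. The member median was −1.39. With stapled-peptide, 0 of 9 members passed 4-fold between the times, against 0.521% of 16138 genes in either direction, with a member median of −0.09. These comparisons share arrays with those between the peptides, so the same array enters both of the comparisons in which members passed.

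Beyond the members, 75 of 85 genes from lists of imprinted genes and their neighbours were on the array. Of these, 1, SLC22A18, was matched through a synonym, and 13 of the 75 were dim on every array. Whether each listed gene is imprinted was not examined, so the shares are those of the lists. At 48 h 11 were at least 4-fold lower and 8 at least 4-fold higher with non-specific stapled-peptide. That is 17.7% and 12.9% of the 62 with a difference, against 8.7% and 8.1% of all genes. Of the 11 lower genes 3 lie in the interval of SNRPN, namely SNURF, IPW and PWARSN. Since SNURF and IPW lie on the same transcript as SNRPN, the 11 are not independent, and their share is a description. Another 31 had measured differences under 4-fold and 12 had bounds that do not reach it, and the median over the 62 was −0.15. At 24 h 0 passed 4-fold. Outside the members' own clusters, the lower genes were NAP1L5 (a bound of −3.68) and ZNF331 (−2.59), although the other probe of ZNF331 differed by −0.62. The higher ones were HYMAI (3.41), GRB10, an adaptor that dampens insulin and IGF receptor signalling (2.63), ZDBF2 (2.53) and TP73 (2.09). The second probes of GRB10 and TP73 differed by 1.47 and 0.46. GRB10 had 9.58, 9.61, 9.72 and 12.35, so its first 3 arrays agreed within 0.14.

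Genes that act on DNA methylation or at imprints were listed as well, including the TET enzymes, which oxidize methylated cytosine. Of 17 on the array, 13 had a difference at 48 h, with a median of 0.92. With non-specific stapled-peptide 5 were at least 4-fold higher and 0 lower, 38.5% and 0% of the 13, against 8.1% and 8.7% of all genes. Another 6 had measured differences under 4-fold, 2 had bounds that do not reach it and 4 were not measured. TET1, an enzyme that oxidizes methylated cytosine, had 6.16, 6.70, 6.64 and 11.55 (4.91). The maintenance methyltransferase DNMT1 had 7.87, 7.94, 7.90 and 10.09 (2.20), and its partner UHRF1 differed by 2.0, the helicase HELLS by 2.10 and the methyltransferase DNMT3B by 2.61. The other probes of UHRF1 and HELLS differed by 1.66 and 1.89, so the place of these 2 genes among the 5 depends on the probe. ZFP57 was dim on every array. TRIM28, which ZFP57 recruits, differed by 0.07 and the insulator protein CTCF by 0.70. At 24 h 0 of the list passed 4-fold.

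In the IGF axis, to which IGF2 belongs, 7 of 22 genes were at least 4-fold lower and 3 higher at 48 h. That is 36.8% and 15.8% of the 19 with a difference, against 8.7% and 8.1% of all genes. Another 9 differed by less and 3 gave no difference between the peptides. The lower ones were led by the binding proteins IGFBP6 (13.11, 13.13, 13.15 and 5.66, a difference of −7.49), IGFBP7 (−4.78) and IGFBP3 (a bound of −4.24), by PAPPA, a protease that cleaves IGF binding proteins (−3.80), and by the receptor substrate IRS1 (−3.37). The higher ones were IGF2BP1, an RNA-binding protein named for IGF2 transcripts (a bound of 7.79), IGFBP5 (a bound of 2.35) and IGFBP2 (2.27). The receptors IGF1R and INSR differed by −0.18 and 0.88, and IGF2R, itself imprinted in some individuals, by −1.20.

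Among the inhibitors and kinases that CDKN1C works with, CDKN1A, encoding p21, had 9.24, 9.18, 9.15 and 6.19 (−2.96), while CDKN1B, encoding p27, differed by 0.02. The cyclins CCND1 (−4.15) and CCND3 (−2.65) were also at least 4-fold lower and CCNA2 (2.19) at least 4-fold higher, and the remaining 9 of 13 genes differed by less. In this list 23.1% were thus lower and 7.69% higher by that size, against 8.7% and 8.1% of all genes. CDKN1C and CDKN1B were thus within 2-fold at 48 h while CDKN1A was not. Of 8 relatives of the members, 0 passed 4-fold in either direction. SNRPB, whose Sm proteins are the ubiquitous counterparts of SmN, had 12.25, 12.28, 12.17 and 13.55, a difference of 1.37 in the direction opposite to SNRPN. The MAGE genes MAGED1, MAGED2 and NSMCE3 differed by 0.05, 0.38 and 0.11, and DLK2 by −1.78. BIG3, listed under its symbol ARFGEF3, had 5.96, 4.84, 3.54 and 7.62 at its brightest probe, which was dim with stapled-peptide at 48 h (a bound of 3.73), and its lowest probe difference was 0.58.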

How the data were processed

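The 4 arrays are labelled as RNA of MCF-10A cells given 10 µM of either peptide, with 1 array for each peptide and time, and the markers of the array labelled non-specific 48 h go against this label. The authors extracted spot intensity values with Agilent Feature Extraction, version 10.7.1.1 per the file headers and 9.5 per the submitters' processing notes. These deposited intensities are linear and background-subtracted, and were not normalized between arrays. Per the file headers, all 4 arrays lie on the same slide and were scanned together. The authors' combined table holds means of the same intensities over the spots of a probe.

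Controls were left out, as were 343 to 438 spots an array that carried the software's mark for uneven pixels or for distance from their replicate spots. For each probe the mean log2 signal over its spots was taken, quantile normalization over the 4 arrays followed, as in the study's methods, and signals under 1 would have been set to 1. Symbols came from RefSeq accessions (GRCh38.p14) for 28168 of 50590 probes (55.7%). Gene positions are not printed, because the array grid uses an older build. RefSeq windows supplied the sequences. Calculations were run in Python 3.11.15 (pandas 2.3.3 and numpy 2.4.6). Figures were drawn with matplotlib 3.10.9. Normexp with an offset of 50 came from limma 3.58.1 under R 4.3.3.

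The members, the gene lists, the 4-fold size and 13 alternative settings were chosen with earlier results of these data known. Named were all members with every probe, from each list the genes past 4-fold, at most 5 in each direction by size, and every listed gene of a member's cluster that was well above background on any array. Steps were tested on simulated data. No p-value is given, since each group has 1 array. Depth is not defined for arrays. A listed gene is not reported here.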

Additional observations from a re-analysis of the deposited data

Results flagged for a closer look

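PEG10 differed between the peptides by 0.0417 at 24 h and by a bound of −4.92 at 48 h, so the values at the 2 times have opposite signs. The value at 24 h lies within the standard deviation of 0.43 over probes at that time, and the difference between the times was not tested, since each rests on 1 array per group.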

How the results depend on the processing

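No paired analysis was possible because each group has 1 array, and leaving out the array labelled non-specific 48 h removes both comparisons in which members passed 4-fold. A quantile normalization over the other 3 arrays, chosen after seeing the data, left 0 members past 4-fold between the peptides at 24 h and between the times with stapled-peptide. The 3 members past 4-fold at 48 h were 1 (H19) when a probe had to be above background on both arrays, 5 at 2-fold and 1 (SNRPN) at 100-fold, and the 4 between the times with non-specific stapled-peptide were 1 in the first of these and 1 at 100-fold. MEST joined at 48 h, for 4 members, under scaling to the 75th percentile, which moves the median probe by −0.03 on the stapled and −0.22 on the array labelled non-specific 48 h, and without the bound. At 24 h the 0 members became 1, PEG3, at 2-fold. The 19 other genes from the lists of imprinted genes and neighbours past 4-fold at 48 h were 11 under normexp, 33 at 2-fold, 8 at 10-fold and 2 at 100-fold. Requiring both arrays above background removes every bound, and the cause of the normexp value was not tested. Of 315 recomputed member differences 0 of those past 4-fold changed sign, 3 smaller ones did (reported sizes of at most 0.28, namely DLK1 between the times with non-specific stapled-peptide under scaling, and CDKN1C at 24 h and SNRPN between the times with stapled-peptide under normexp), and 20 moved by more than 0.43, 10 of them under normexp, 6 without the bound and 4 when a gene's probes were averaged. Over these, SNRPN at 48 h ran from −8.49 to −4.25, PEG10 from −6.82 to −2.69, H19 from −4.91 to −2.75 and MEST from −2.25 to −0.62. IGF2 ran from 0.46 to 1.04 and CDKN1C from 0.12 to 0.46. Signal over background limits NDN on every array and SNRPN, PEG10 and MEST on the array labelled non-specific 48 h to bounds or no value.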
